A study of Mus musculus with 16 samples.

Results

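The genes described here are 10 genes used to tell resting cardiac fibroblasts from activated fibroblasts and myofibroblasts. They were chosen by name, as the rows for *Acta2*, *Tagln*, *Cnn1*, *Fap*, *Cthrc1*, *Meox1*, *Tcf21*, *Pdgfra*, *Gsn* and *Ddah1* among the 55492 genes of the deposited table. Of the 10, 9 averaged 10 or more normalized counts over the libraries and were tested, while *Cthrc1* was almost without reads. A normalized count is the number of reads on a gene divided by the size factor of its library.

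RNA was sequenced from the left ventricle of 16 male C57BL/6 mice aged 8 to 12 weeks, either PKM2fl/fl or PKM2-/-. PKM2fl/fl mice carry a *Pkm* allele whose exon 10 is flanked by loxP sites, and the global knockout came from germline deletion with Cre under a CMV promoter, after which the Cre allele was bred out, so every cell type of a PKM2-/- heart carries the deletion. Each genotype gave 2 untreated hearts (baseline), 3 hearts taken 3 days after sham surgery and 3 hearts taken 3 days after myocardial infarction (MI) by permanent ligation of the left anterior descending coronary artery. Each library is a separate mouse, and the values are those of whole ventricular tissue and not of sorted fibroblasts.

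In the resting heart, fibroblasts sit between the cardiomyocytes, express the receptor PDGFRA and the transcription factor TCF21, and keep the matrix in place. After an infarct they proliferate, lay down collagen and in part become myofibroblasts, which build contractile stress fibres from smooth muscle alpha actin (ACTA2), transgelin (TAGLN) and calponin (CNN1). The same contractile genes are expressed by vascular smooth muscle cells, and actin genes of this kind are controlled by serum response factor (SRF) and its coactivators, the MRTF proteins and myocardin, which act through DNA elements called CArG boxes.

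The members lie on 8 chromosomes of GRCm38 (mm10), the build to which the reads were aligned. By RefSeq coordinates, *Acta2* spans chr19:34240336-34255585, *Tagln* chr9:45929628-45936058, *Cnn1* chr9:22099221-22109221, *Fap* chr2:62500936-62575509 and *Cthrc1* chr15:39076932-39087121. *Meox1* spans chr11:101877510-101894354, *Tcf21* chr10:22817263-22820143, *Pdgfra* chr5:75151322-75198206, *Gsn* chr2:35256359-35307902 and *Ddah1* chr3:145758692-145894277. The annotation places *Cnn1* and *Tagln* on the same chromosome, and *Fap* and *Gsn* on another. Several members share bases with another gene, and the strand setting of the counting is not given in the sources used here. *Gm48529*, a long non-coding RNA on the strand opposite to *Tagln* in GENCODE M39, held 92.6 to 96.9% as many reads as *Tagln* in every library, and *Gm10824*, opposite to *Tcf21*, held 100 to 125% as many reads as *Tcf21*. Without strand, the reads of each pair cannot be told apart.

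The 250 bases before the RefSeq transcription start were searched on both strands for the CArG box, a run of 6 A or T bases between CC and GG, also allowing 1 of the 6 bases to be C or G. RefSeq promoters were at hand for 6 of the 10 members (*Acta2*, *Cnn1*, *Gsn*, *Pdgfra*, *Tcf21* and *Ddah1*). The windows of *Acta2* and *Cnn1*, contractile members whose levels are compared below, are shown 5′ to 3′ in GRCm38.p6, with CArG boxes that have 1 base changed in capitals. *Acta2* is read on the reverse strand of chr19:34255374-34255623 and *Cnn1* on the forward strand of chr9:22099003-22099252, and both starts lie inside the gene spans above.
Acta2: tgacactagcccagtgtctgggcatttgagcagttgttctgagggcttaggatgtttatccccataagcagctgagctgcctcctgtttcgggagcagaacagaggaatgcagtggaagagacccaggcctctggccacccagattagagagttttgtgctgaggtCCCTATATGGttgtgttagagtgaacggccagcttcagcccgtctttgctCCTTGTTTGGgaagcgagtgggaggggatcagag
Cnn1: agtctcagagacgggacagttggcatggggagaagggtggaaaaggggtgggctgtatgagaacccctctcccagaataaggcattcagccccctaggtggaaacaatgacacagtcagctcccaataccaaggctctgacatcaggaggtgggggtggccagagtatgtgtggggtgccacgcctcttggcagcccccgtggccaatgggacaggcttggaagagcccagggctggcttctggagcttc
*Acta2* had 2 such elements, which begin 84 and 34 bases before the start and read CCCTATATGG and CCTTGTTTGG, and 0 unaltered CArG boxes. *Cnn1* had 0 of either kind in its window. The 3 *Gsn* windows held 1 changed element, CCTTCTATGG, which begins 162 bases before the most upstream start. Among the 32851 promoter windows of the same length, 1.47% held a CArG box and 7.24% held 1 with a changed base. CATTCC, the core of the MCAT element bound by TEAD factors, was found once among the member windows, 146 bases before the *Acta2* start on the opposite strand, and in 12.6% of all windows. TATAAA was in 0 member windows and in 12.4% of all windows.

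The libraries held between 20623769 and 71855101 reads on genes. Loci related to rRNA took 17.4 to 22.3% of the reads in PKM2fl/fl and 41.1 to 45.2% in PKM2-/- baseline libraries, without overlap. They took 15.9 to 28.1% of the reads in PKM2fl/fl sham and 20.2 to 49.4% in PKM2fl/fl MI libraries, and 29.6 to 48.2% and 16.4 to 37.1% in PKM2-/- sham and MI libraries. The loci include the mitochondrial rRNA genes *mt-Rnr1* and *mt-Rnr2*, at 5.27 and 11.7% in PKM2fl/fl and 12.4 and 22.3% in PKM2-/- baseline replicate 1. They also include *CT010467.1*, *Lars2*, *Gphn* and *Cd44*, which the paper lists as differentially expressed at baseline. *Pkm* as a whole gene, which counts PKM1 and PKM2 together and so does not check the deletion, had 7779 to 12076 normalized counts in PKM2fl/fl and 10120 to 16113 in PKM2-/- hearts. All 10 cardiomyocyte markers had reads in every library. Genes were compared by limma-trend on log2 values after adding 1, over 20576 genes and all 16 libraries, and a gene was called when its Benjamini-Hochberg adjusted p was under 0.05 and its change at least 2-fold. The residual spread of a gene was pooled over the 6 groups, so its standard error does not show the spread of any single group.

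After MI, 3 of the 3 contractile genes were called higher in PKM2fl/fl hearts, where 23.5% of all genes tested were called. In PKM2-/- hearts, where 28.8% were, *Tagln* was called, *Acta2* passed the adjusted p under 2-fold and *Cnn1* did not pass. The difference between the genotypes, tested further on, was called for 0 of them. *Acta2*, which encodes smooth muscle alpha actin, had 1287, 1214 and 1285 normalized counts in PKM2fl/fl sham hearts and 5059, 4293 and 4788 in PKM2fl/fl MI hearts. Every MI heart was above every sham heart, and the sham hearts lay close together. Its means were 1262 ± 41.4 after sham and 4713 ± 389 after MI (SD, n = 3 each), which is 1.90 on the log2 fold scale (standard error, SE, 0.32, adjusted p = 0.000154 by limma). In whole tissue, fewer cells of a type and less RNA per cell, or more of either, cannot be told apart.

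In PKM2-/- hearts *Acta2* was more spread out, at 1973, 1198 and 2915 normalized counts after sham surgery and 2746, 4249 and 4013 after MI. The lowest MI heart lay below the highest sham heart, so the groups overlapped. On the log2 scale the change was 0.92 (SE 0.32, adjusted p = 0.0211), which passed the p threshold but not 2-fold. Without sham replicate 2, MI replicate 2 or MI replicate 3 of this genotype, the adjusted p was 0.123, 0.0762 and 0.0666 in turn, and without sham replicate 3 or MI replicate 1 the gene was called, at 1.23 and 1.12. It was also called under total read scaling, at 1.43 (adjusted p = 0.000177), and when scaled to reads outside rRNA-related and mitochondrial genes, at 1.14 (adjusted p = 0.00381). Baseline hearts spanned a wide range in both genotypes, with 1991 and 2892 in PKM2fl/fl and 1308 and 3341 in PKM2-/- hearts.

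*Tagln*, whose product binds actin filaments, was at 493, 578 and 479 normalized counts in PKM2fl/fl sham hearts and 1782, 1965 and 1675 after MI. In PKM2-/- hearts it was at 632, 632 and 694 after sham and 1225, 1776 and 1766 after MI. MI and sham hearts did not overlap in either genotype. The log2 fold changes were 1.81 (SE 0.18, adjusted p = 1.62e-06) in PKM2fl/fl and 1.26 (SE 0.18, adjusted p = 2.38e-05) in PKM2-/- hearts, and both were called. At baseline it was at 546 and 750 in PKM2fl/fl and 480 and 770 in PKM2-/- hearts.

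*Cnn1* encodes calponin, which binds actin and is most abundant in smooth muscle. It had few reads, from 41 to 138 in a library. PKM2fl/fl sham hearts had 37.6, 49.3 and 40.2 normalized counts and MI hearts had 104, 116 and 103, with no overlap. PKM2-/- sham hearts had 65.9, 67.9 and 75.5, above all PKM2fl/fl sham hearts, and MI hearts had 39.7, 87.6 and 114, on both sides of the sham hearts. The gene was called higher in PKM2fl/fl hearts at 1.33 (SE 0.33, adjusted p = 0.00312), and in PKM2-/- hearts it was at 0.08 (SE 0.33, adjusted p = 0.855). Both values depended on the settings. With the level of *CT010467.1*, an rRNA-related locus, as a covariate, the PKM2fl/fl value was 1.02 with an adjusted p of 0.105. In PKM2-/- hearts it was 0.51 without MI replicate 1 (adjusted p = 0.121) and below 0 without MI replicate 2 or 3, at −0.05 and −0.23. MI replicate 1 of the PKM2-/- hearts had the lowest *Acta2*, *Tagln*, *Cnn1* and *Fap* of its group.

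**Figure D1:**
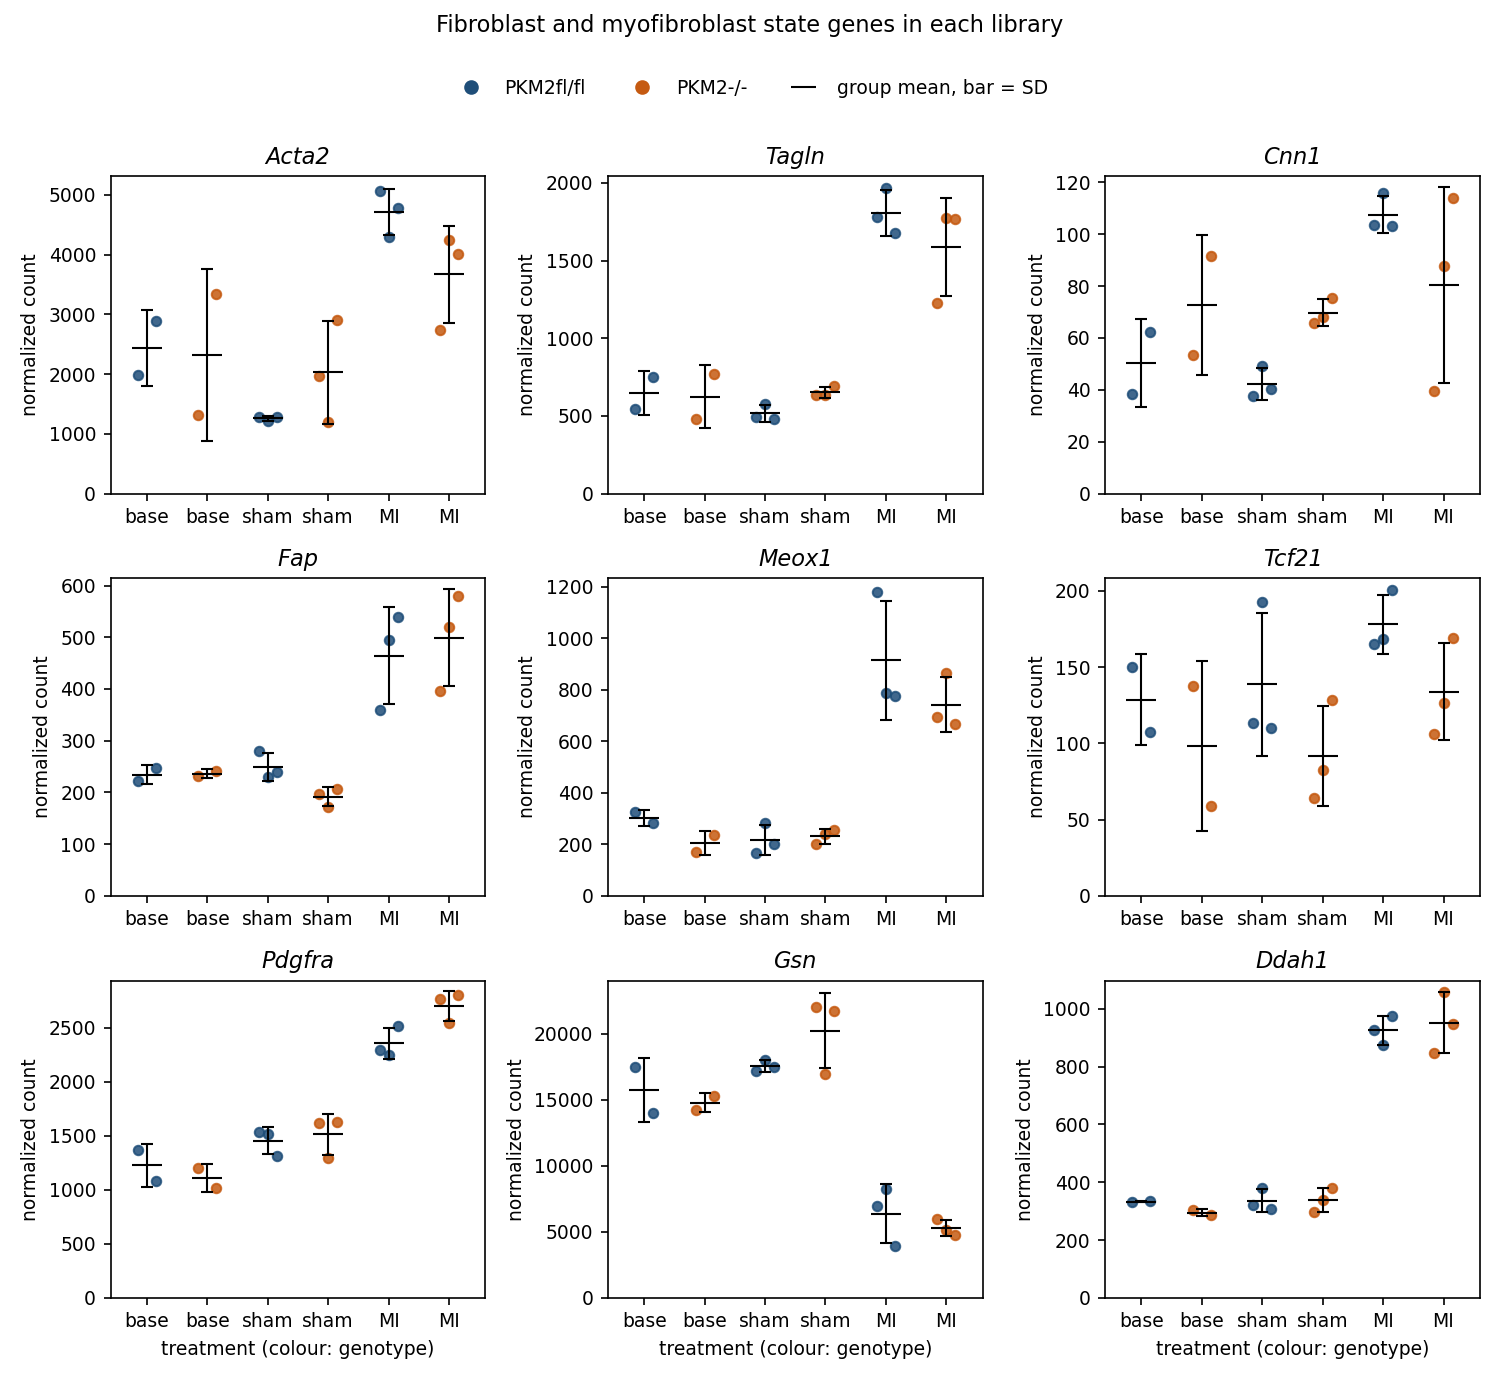
Normalized counts (y axis, linear, from 0) of the 9 tested members in each of 16 libraries, by treatment (x axis: base, baseline), with PKM2fl/fl in blue and PKM2-/- in orange. Each point is a heart, the long tick is the group mean and the bar its SD (n = 2 at baseline, 3 otherwise); *Gsn* is lower in all 6 MI hearts than in the 10 others, and *Ddah1*, *Meox1*, *Tagln*, *Fap* and *Pdgfra* are higher.

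Of the activation genes, *Meox1* changed most. It encodes a homeobox transcription factor known from activated cardiac fibroblasts. *Meox1* was at 167, 281 and 200 normalized counts in PKM2fl/fl sham hearts and 1181, 788 and 774 after MI. In PKM2-/- hearts it was at 199, 239 and 256 after sham and 695, 863 and 667 after MI. All 6 MI hearts were above all other hearts, the highest of which was a PKM2fl/fl baseline heart at 323. On the log2 scale the change was 2.08 (SE 0.21, adjusted p = 1.70e-06) in PKM2fl/fl and 1.67 (SE 0.21, adjusted p = 7.03e-06) in PKM2-/- hearts.

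*Fap* encodes a cell surface protease used to mark activated fibroblasts. PKM2fl/fl hearts had 281, 230 and 239 normalized counts after sham and 359, 494 and 540 after MI, and PKM2-/- hearts had 196, 171 and 207 after sham and 396, 521 and 580 after MI. No MI heart overlapped the sham hearts of its genotype. *Fap* was called in PKM2-/- hearts, at 1.36 (SE 0.17, adjusted p = 6.77e-06). In PKM2fl/fl hearts it was 0.87 (SE 0.17, adjusted p = 0.000471), under 2-fold, and without PKM2fl/fl MI replicate 1 it was called at 1.05. When libraries were scaled to their total reads, the adjusted p in PKM2fl/fl hearts was 0.0821.

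*Cthrc1*, which encodes a secreted protein of matrix-producing fibroblasts, was listed at 0 in 14 of 16 libraries. There were 2 reads in a PKM2fl/fl MI library and 4 in a PKM2-/- MI library, 6 in all. A count of 0 allows up to 3 reads, which is between 0.0418 and 0.145 CPM in these libraries, and this covers counting error only. No fold was computed, and at this depth the gene was not detectable in sham or baseline hearts.

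The resting fibroblast members did not move together. *Gsn* fell, *Pdgfra* was higher after MI by less than 2-fold, and *Tcf21* did not pass the test. *Gsn* encodes gelsolin, which severs actin filaments and is abundant in resting cardiac fibroblasts as well as in other heart cells. It had 17164, 18024 and 17503 normalized counts in PKM2fl/fl sham hearts and 6947, 8279 and 3924 after MI. PKM2-/- hearts had 22041, 16949 and 21702 after sham and 5992, 5167 and 4771 after MI. Every MI heart was below every sham and baseline heart. On the log2 scale the change was −1.53 (SE 0.21, adjusted p = 2.98e-05) in PKM2fl/fl and −1.93 (SE 0.21, adjusted p = 2.57e-06) in PKM2-/- hearts, and both were called.

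PKM2fl/fl MI replicate 3 had the lowest *Gsn* of all hearts. In the same library the summed cardiomyocyte markers were at 323932 normalized counts, against 709369 and 711136 in the other PKM2fl/fl MI hearts, and the value of *Gsn* without it was −1.21. All 10 cardiomyocyte markers were below 0 on the log2 fold scale in both genotypes. Of these, 9 were called lower in PKM2fl/fl and 10 in PKM2-/- hearts, against 11.1% and 14.3% of all genes. Their sum was 1626781 to 1775364 in PKM2fl/fl sham and 323932 to 711136 in PKM2fl/fl MI hearts, and 1427811 to 1764939 and 319279 to 412148 in PKM2-/- hearts. Their part in the fall of *Gsn* was not tested.

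*Pdgfra*, the receptor for platelet-derived growth factor on fibroblasts, was at 1532, 1517 and 1308 normalized counts in PKM2fl/fl sham hearts and 2294, 2250 and 2520 after MI. PKM2-/- hearts had 1614, 1297 and 1629 after sham and 2768, 2542 and 2800 after MI. The MI hearts lay above the sham hearts in both genotypes without overlap. The log2 fold changes of 0.70 (SE 0.12, adjusted p = 0.000167) and 0.84 (SE 0.12, adjusted p = 2.19e-05) passed the p threshold and were under 2-fold. Under total read scaling, the PKM2fl/fl value was 0.52 with an adjusted p of 0.189.

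*Tcf21* encodes the transcription factor that marks the fibroblast lineage of the epicardium. PKM2fl/fl hearts had 113, 193 and 110 normalized counts after sham and 165, 168 and 200 after MI, and PKM2-/- hearts had 64.3, 82.3 and 128 after sham and 106, 126 and 169 after MI. Sham and MI hearts overlapped in both genotypes. The log2 fold changes were 0.40 (95% interval −0.29 to 1.09, adjusted p = 0.322) and 0.57 (95% interval −0.12 to 1.26, adjusted p = 0.145), intervals that include a doubling as well as no change.

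*Ddah1* encodes an enzyme that breaks down asymmetric dimethylarginine, an inhibitor of nitric oxide synthase. Its SE was the smallest among the called members. PKM2fl/fl hearts had 320, 381 and 309 normalized counts after sham and 926, 876 and 974 after MI, and PKM2-/- hearts had 296, 338 and 381 after sham and 848, 1059 and 948 after MI. The highest of the 10 hearts without MI was at 381 and the lowest MI heart at 848. On the log2 scale the change was 1.46 (SE 0.12, adjusted p = 3.03e-07) in PKM2fl/fl and 1.49 (SE 0.12, adjusted p = 1.89e-07) in PKM2-/- hearts.

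Over the 9 tested members, 6 were called in PKM2fl/fl and 5 in PKM2-/- hearts, and 8 and 7 passed the adjusted p alone, against 50.1% and 56.8% of all genes. Higher were 5 members in PKM2fl/fl (12.4% of all genes) and 4 in PKM2-/- hearts (14.5% of all genes), and lower was *Gsn* alone in each (11.1% and 14.3% of all genes). Of the 9, MI and sham hearts did not overlap for 8 in PKM2fl/fl and 6 in PKM2-/- hearts, against 59.0% and 62.3% of all genes tested. The median log2 fold change of the 3 contractile members was 1.81 in PKM2fl/fl and 0.92 in PKM2-/- hearts, and that of the 3 resting members 0.40 and 0.57, beside −0.003 and 0.01 over all genes.

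**Figure D2:**
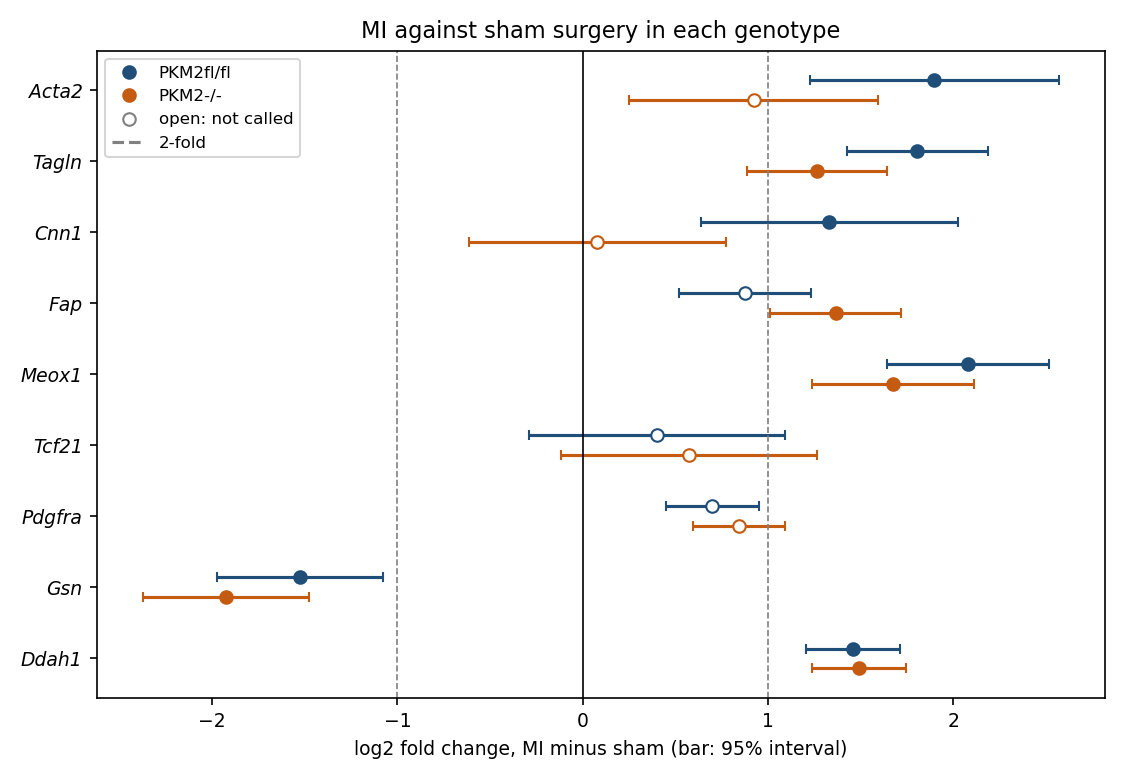
Log2 fold change of MI against sham (x axis) for the 9 tested members (y axis) in PKM2fl/fl (blue) and PKM2-/- hearts (orange), with 95% intervals from limma and 3 hearts per group. Filled points were called, open points were not, and dashed lines mark 2-fold; *Ddah1* is at 1.46 and 1.49, while *Cnn1* is at 1.33 and 0.08.

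Whether PKM2 loss altered these responses was tested as the difference between the MI effects of the genotypes. Of the 9 members, 0 were called by limma (0% of all genes), 3 had an unadjusted p under 0.05 (8.28% of all genes), and 0 were called by edgeR and 0 by DESeq2. The 3 were the contractile genes, each with a smaller MI effect in PKM2-/- hearts. Differences below 0 were also found for 10 of 10 smooth muscle markers (median −0.38) and 10 of 10 cardiomyocyte markers (median −0.51), 0 of them called by limma, beside a median of −0.008 over all genes, and their part in the contractile values was not tested. The difference was −1.25 for *Cnn1* (SE 0.46, unadjusted p = 0.0156, adjusted p = 0.537), −0.98 for *Acta2* (SE 0.45, unadjusted p = 0.0451, adjusted p = 0.588) and −0.54 for *Tagln* (SE 0.25, unadjusted p = 0.0472, adjusted p = 0.596), all by limma. For *Tagln* it was 0.15 under total read scaling, where the median over all genes was 0.67. For *Acta2* the 95% interval was −1.93 to −0.02, and edgeR without a filter on low counts called it, at −1.01 (adjusted p = 0.000100), while its adjusted p over all alternatives ran from 0.000100 to 0.900. Both arms entered these values. After sham surgery PKM2-/- against PKM2fl/fl hearts were higher, at 0.71 for *Cnn1*, 0.59 for *Acta2* and 0.34 for *Tagln*. After MI they were lower, at −0.54, −0.38 and −0.20 in the same order, and limma called none of these differences.

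The difference between the MI effects pointed the other way for *Fap*, at 0.49 (SE 0.24, adjusted p = 0.606). The difference for *Meox1* was −0.41 (SE 0.29, adjusted p = 0.739), with an interval of −1.02 to 0.21, and 0.28 under total read scaling.

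Between genotypes within a treatment, limma called 0 of the 9 members at baseline (0.00972% of all genes called), after sham surgery (0.00486%) and after MI (0.413%), and edgeR and DESeq2 each called 0 in all 3. At an unadjusted p under 0.05 there were 1, 2 and 0 of the 9 members, where 3.64%, 9.95% and 17.0% of all genes were. At baseline the 1 was *Meox1*, with 323 and 281 normalized counts in PKM2fl/fl and 171 and 236 in PKM2-/- hearts, a log2 difference of −0.58 (SE 0.25, adjusted p = 1.00). The baseline hearts did not overlap for *Meox1* and *Ddah1*, against 34.9% of all genes, nor for the rRNA shares given above, whose part was not tested. After sham surgery the 2 were *Cnn1*, at 42.4 ± 6.13 in PKM2fl/fl and 69.8 ± 5.07 in PKM2-/- hearts, and *Fap*, at 250 ± 27.2 and 191 ± 18.5 (SD, n = 3 each). Their log2 differences were 0.71 (SE 0.33, adjusted p = 0.485) and −0.38 (SE 0.17, adjusted p = 0.461), and in both genes the 2 sham groups did not overlap. Over all 10 members the genotypes did not overlap for 3 after sham, against 16.5% of all genes tested.

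After MI, the genotypes did not overlap for 2 members, against 18.9% of all genes: every PKM2-/- MI heart lay below every PKM2fl/fl MI heart for *Acta2* and above for *Pdgfra*. For *Acta2* the highest PKM2-/- MI heart was at 4249 and the lowest PKM2fl/fl MI heart at 4293. Its log2 difference was −0.38 (95% interval −1.06 to 0.29, adjusted p = 0.574 by limma). *Pdgfra* averaged 2703 ± 140 in PKM2-/- and 2355 ± 144 in PKM2fl/fl MI hearts (SD, n = 3 each). The difference was 0.20 (95% interval −0.05 to 0.45, adjusted p = 0.411). *Cnn1* after MI was at 108 ± 7.09 in PKM2fl/fl and 80.4 ± 37.6 in PKM2-/- hearts, a difference of −0.54 (95% interval −1.23 to 0.15, adjusted p = 0.421). When the genotypes were compared over the 3 treatments, *Tcf21* was the member with an unadjusted p under 0.05. Its mean was lower in PKM2-/- hearts in every treatment, with 129 ± 30.0 against 98.1 ± 55.8 at baseline (n = 2 each), 139 ± 47.0 against 91.7 ± 33.0 after sham and 178 ± 19.4 against 134 ± 31.9 after MI (n = 3 each, all SD). The difference over the treatments was −0.51 (SE 0.20, unadjusted p = 0.0235, adjusted p = 0.349 by limma). Its adjusted p over all alternatives ran from 0.0463 to 0.721, and the difference stayed under 2-fold. In that comparison 0 members were called by limma, edgeR or DESeq2 (0.0340% of all genes by limma), and 1 of 9 had an unadjusted p under 0.05, where 11.4% of all genes did.

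Sham surgery against no surgery gave 0 called members in PKM2fl/fl (0.170% of all genes) and 0 in PKM2-/- hearts (2.66%) by limma, and 0 by edgeR and by DESeq2. At an unadjusted p under 0.05 there were 2 in PKM2fl/fl, *Acta2* and *Meox1* (8.81% of all genes), and 1 in PKM2-/- hearts, *Pdgfra* (18.9% of all genes). *Acta2* was lower in the 3 PKM2fl/fl sham hearts than in the 2 baseline hearts, with a log2 difference of −0.93 (SE 0.35, adjusted p = 0.396 by limma). No alternative called it, but its adjusted p over all alternatives ran from 1.14e-07 to 0.998. With single libraries left out the difference ran from −1.20 to −0.66. *Meox1* differed by −0.51 (SE 0.23, adjusted p = 0.535), its highest sham heart being at 281.26 and its lowest baseline heart at 281.30. *Pdgfra* in PKM2-/- hearts was at 1202 and 1017 at baseline, below the sham values above, a difference of 0.44 (SE 0.13, adjusted p = 0.0646). Its adjusted p over all alternatives ran from 0.0356, without sham replicate 2, to 0.479, under total read scaling, and the change stayed under 2-fold. Sham and baseline hearts did not overlap for 2 members in PKM2fl/fl and 3 in PKM2-/- hearts, against 32.5% and 34.5% of all genes.

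Within a library, the ratio of 2 genes does not depend on how libraries are scaled. The log2 ratio of *Acta2* to *Gsn* was −3.80 ± 0.08 in PKM2fl/fl sham and −0.37 ± 0.62 in PKM2fl/fl MI hearts, and −3.40 ± 0.47 and −0.55 ± 0.50 in PKM2-/- hearts (SD, n = 3 each). MI and sham hearts did not overlap, and the MI means of the genotypes differed by less than their SD. The ratio of *Gsn* to *Pdgfra* was 3.60 ± 0.13 and 1.37 ± 0.65 in PKM2fl/fl, and 3.74 ± 0.03 and 0.97 ± 0.18 in PKM2-/- hearts. These resting fibroblast members changed unequally in all 6 MI hearts. The ratio of *Meox1* to *Tcf21* was 0.66 ± 0.18 and 2.34 ± 0.45 in PKM2fl/fl, and 1.39 ± 0.34 and 2.49 ± 0.44 in PKM2-/- hearts.

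Since smooth muscle cells express the contractile members too, they were set beside *Myh11*, the smooth muscle myosin heavy chain. *Myh11* was at 1240 ± 177 normalized counts in PKM2fl/fl sham and 870 ± 344 in PKM2fl/fl MI hearts, a log2 fold change of −0.60 (SE 0.24, adjusted p = 0.0514). In PKM2-/- hearts it fell from 1765 ± 207 to 695 ± 41.3, by 1.34 on the log2 scale (SE 0.24, adjusted p = 0.000222). The log2 ratio of *Acta2* to *Myh11* was 0.03 ± 0.17 after sham and 2.53 ± 0.72 after MI in PKM2fl/fl hearts, and 0.11 ± 0.48 and 2.38 ± 0.43 in PKM2-/- hearts (SD, n = 3 each). The ratio of *Tagln* to *Myh11* went from −1.26 ± 0.34 to 1.15 ± 0.57 and from −1.43 ± 0.11 to 1.17 ± 0.39, and that of *Cnn1* from −4.87 ± 0.37 to −2.92 ± 0.61 and from −4.66 ± 0.11 to −3.24 ± 0.87. For all 3 ratios every MI heart was above every sham heart of its genotype. The *Cnn1* ratio in PKM2-/- hearts moved with the fall of *Myh11*, while *Cnn1* itself was at 0.08.

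**Figure D3:**
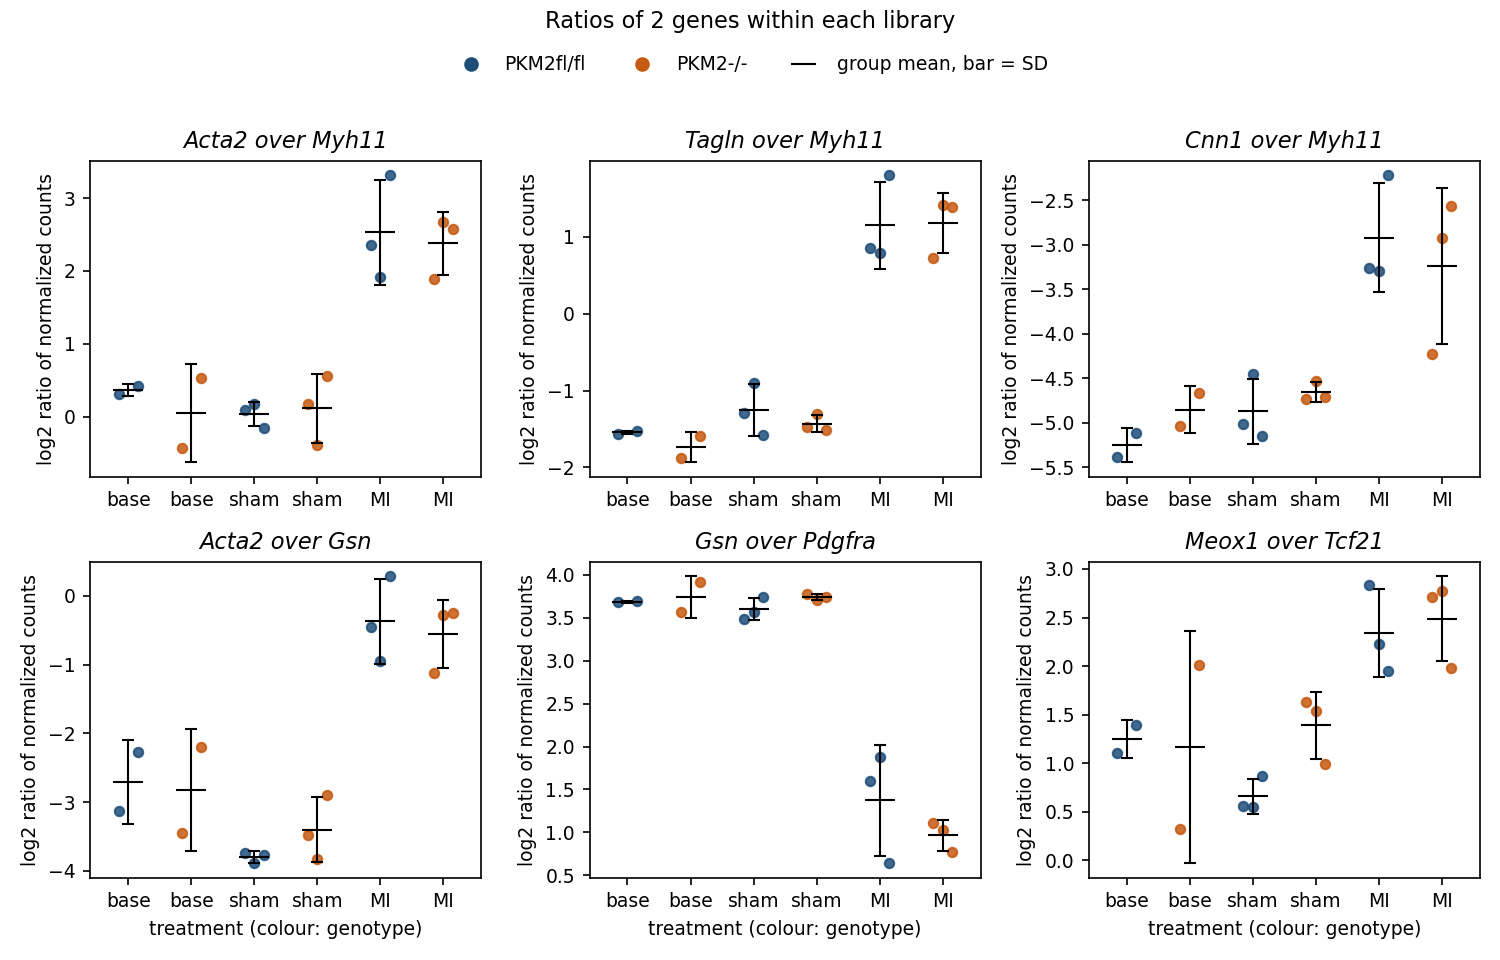
Log2 ratio of the normalized counts of 2 genes within each library (y axis) by treatment (x axis), PKM2fl/fl in blue and PKM2-/- in orange, with the group mean and SD. The ratios of *Acta2*, *Tagln* and *Cnn1* to *Myh11* and of *Acta2* to *Gsn* are higher in every MI heart than in any sham heart of the same genotype, and *Gsn* over *Pdgfra* is lower.

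*Myh11* was 1 of 10 smooth muscle markers on a list chosen, like the members, with earlier results of these data known. In PKM2fl/fl hearts, where 23.5% of all genes were called, 1 of the 10 was called higher and 2 lower (median log2 fold change −0.51). In PKM2-/- hearts, where 28.8% were, 0 were called higher and 4 lower (median −0.75). The 1 that rose was *Actg2*, the smooth muscle gamma actin, at 1.85 (SE 0.33, adjusted p = 0.000247), while *Synpo2* fell by 1.22 and 1.51 and *Myocd* fell too. *Itga8* was at −0.75 in PKM2fl/fl hearts and fell by 1.02 in PKM2-/- hearts. The summed markers were at 39139 to 43957 normalized counts in PKM2fl/fl sham and 20204 to 36356 in MI hearts, and at 43537 to 46326 and 24218 to 32012 in PKM2-/- hearts. The lowest sum was that of PKM2fl/fl MI replicate 3, whose summed cardiomyocyte markers, at 323932, were also the lowest of its group. A sum is ruled by the genes with the most counts, so these sums do not stand for smooth muscle cells alone. The part of cardiomyocytes in the smooth muscle and pericyte values, those of *Synpo2* and *Myocd* among them, was not tested. Without PKM2fl/fl MI replicate 3, 1 of the 10 was called in PKM2fl/fl hearts, and 1 also with *CT010467.1* as a covariate.

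Of 10 pericyte markers, 1 was called higher and 2 lower in PKM2fl/fl hearts, where 23.5% of all genes were called. In PKM2-/- hearts, where 28.8% were, 1 was called higher and 3 lower. *Rgs5*, a marker of pericytes, was at −0.997 (SE 0.17, adjusted p = 0.000148) in PKM2fl/fl hearts, short of 2-fold, and fell by 1.41 in PKM2-/- hearts. *Mcam* was the marker that rose, by 2.12 and 2.10, while *Abcc9* fell by 1.52 and 2.22 and *Vtn* by 1.09 and 1.17.

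Transcripts of other actin genes resemble that of *Acta2*. The longest run of bases shared exactly with the *Acta2* transcript was 23 in *Actc1*, 29 in *Acta1* and *Actg2*, 47 in *Actb* and 56 in *Actg1* (GENCODE M39 transcripts). *Actc1*, the cardiac actin, was at −0.74 (SE 0.31, adjusted p = 0.0578) in PKM2fl/fl and fell in PKM2-/- hearts, at −1.22 (adjusted p = 0.00325). *Actb* rose by 2.46 (SE 0.16, adjusted p = 6.41e-08) in PKM2fl/fl and 2.24 (adjusted p = 8.93e-08) in PKM2-/- hearts, and *Actg1* by 2.19 (SE 0.17, adjusted p = 1.96e-07) and 1.87. *Acta1* was at 0.42 (adjusted p = 0.296) and −0.50 (adjusted p = 0.195). How the counting treated reads that match several genes is not given in the sources used here.

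The matrix genes of activated fibroblasts were a list of 15, chosen with earlier results of these data known. All 15 were called higher in both genotypes, where 12.4% and 14.5% of all genes were. Their median log2 fold changes were 3.69 and 3.59. *Postn*, which encodes periostin, was at 1210 ± 393 normalized counts in PKM2fl/fl sham and 16426 ± 433 in MI hearts, and at 1103 ± 425 and 12825 ± 1982 in PKM2-/- hearts (SD, n = 3 each). Osteopontin (*Spp1*), which macrophages express too, rose by 6.71 and 6.52, tenascin C (*Tnc*) by 6.03 and 5.58, fibronectin (*Fn1*) by 4.08 and 3.90, and *Col12a1* by 3.89 and 3.95. The smallest change on the list was that of *Sparc*, at 2.10 (SE 0.17) and 2.07. In PKM2fl/fl hearts this was close to the 2.08 (SE 0.21) of *Meox1*, the largest change among the members. In PKM2-/- hearts the largest change among the members was the fall of *Gsn*, at −1.93. These gaps were not tested.

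Among 15 other genes of resting fibroblasts, 2 were called higher and 3 lower in PKM2fl/fl hearts (median −0.35), where 23.5% of all genes were called. In PKM2-/- hearts, where 28.8% were, 2 were called higher and 4 lower (median −0.30). Like *Gsn*, the scavenger receptor gene *Scara5* fell, from 823 ± 42.2 to 224 ± 113 normalized counts in PKM2fl/fl and from 919 ± 20.8 to 154 ± 11.7 in PKM2-/- hearts. The dipeptidase gene *Dpep1* fell by 1.19 and 1.35. The collagen gene *Col15a1* rose by 2.16 and 1.87 and the microfibril gene *Mfap5* by 1.83 and 1.52. Without PKM2fl/fl MI replicate 3, 3 of the 15 were called in PKM2fl/fl hearts in place of 5.

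Actin cytoskeleton genes controlled by SRF and MRTF gave 11 higher and 2 lower of 15 in both genotypes, with medians of 1.62 and 1.46. Of all genes tested, 23.5% were called in PKM2fl/fl and 28.8% in PKM2-/- hearts. *Ccn2*, which encodes connective tissue growth factor, rose by 2.42 and 2.16, *Tagln2* by 1.92 and 1.87 and the tropomyosin gene *Tpm4* by 1.80 and 1.82. The 2 that fell were *Tpm1*, by 1.30 and 1.22, and *Fhl2*, by 1.29 and 1.53, which cardiomyocytes express strongly. Of the 14 list genes with a RefSeq promoter, 5 (*Actg1*, *Cnn2*, *Fhl2*, *Myl9* and *Vcl*) held a CArG box in the 250 bases before a start. A box with 1 base changed, the kind found for *Acta2*, was held by 1 (*Myl9*). A gene can have several windows, so these counts are not on the scale of the 1.47% and 7.24% of windows given above. The genes were listed as SRF targets, so the count of CArG boxes is no test of the list.

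Among 24 regulators of fibroblast state, 5 were called higher and 1 lower in PKM2fl/fl hearts, where 23.5% of all genes were called, and 4 higher and 1 lower in PKM2-/- hearts, where 28.8% were (medians 0.17 and 0.16). The transcription factor genes *Snai1*, *Sox9* and *Runx1* rose, by 2.504 and 2.71, 2.29 and 1.75, and 2.25 and 2.29, as did *Twist1*, by 1.95 and 1.76, while *Myocd*, the coactivator of SRF in muscle, fell by 1.20 and 2.06. *Srf* itself was at −0.28 (adjusted p = 0.152) and −0.42 (adjusted p = 0.0322), short of 2-fold, and *Mrtfa* rose by 1.05 in PKM2fl/fl hearts and was at 0.80 in PKM2-/- hearts. Under total read scaling, 10 of the 24 were called in PKM2-/- hearts, the median of all genes then being 0.52. The share of all genes called under that scaling is not given here.

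Markers of leukocytes and of proliferation rose in the same hearts. Of 10 leukocyte markers, 8 were called higher in each genotype, their sum being 5340 to 10913 normalized counts in PKM2fl/fl sham and 21187 to 37846 in MI hearts, and 7644 to 9408 and 30014 to 34456 in PKM2-/- hearts. All 10 proliferation markers were called higher in both genotypes, with sums of 941 to 1534 and 9124 to 12369 in PKM2fl/fl, and 769 to 1188 and 10398 to 13024 in PKM2-/- hearts. Endothelial markers gave 0 higher and 0 lower of 10 in PKM2fl/fl and 1 lower in PKM2-/- hearts by limma, with medians of −0.16 and −0.23. Of all genes tested, 23.5% were called in PKM2fl/fl and 28.8% in PKM2-/- hearts. The part of leukocytes, endothelial cells and dividing cells in the member values was not tested.

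**Figure D4:**
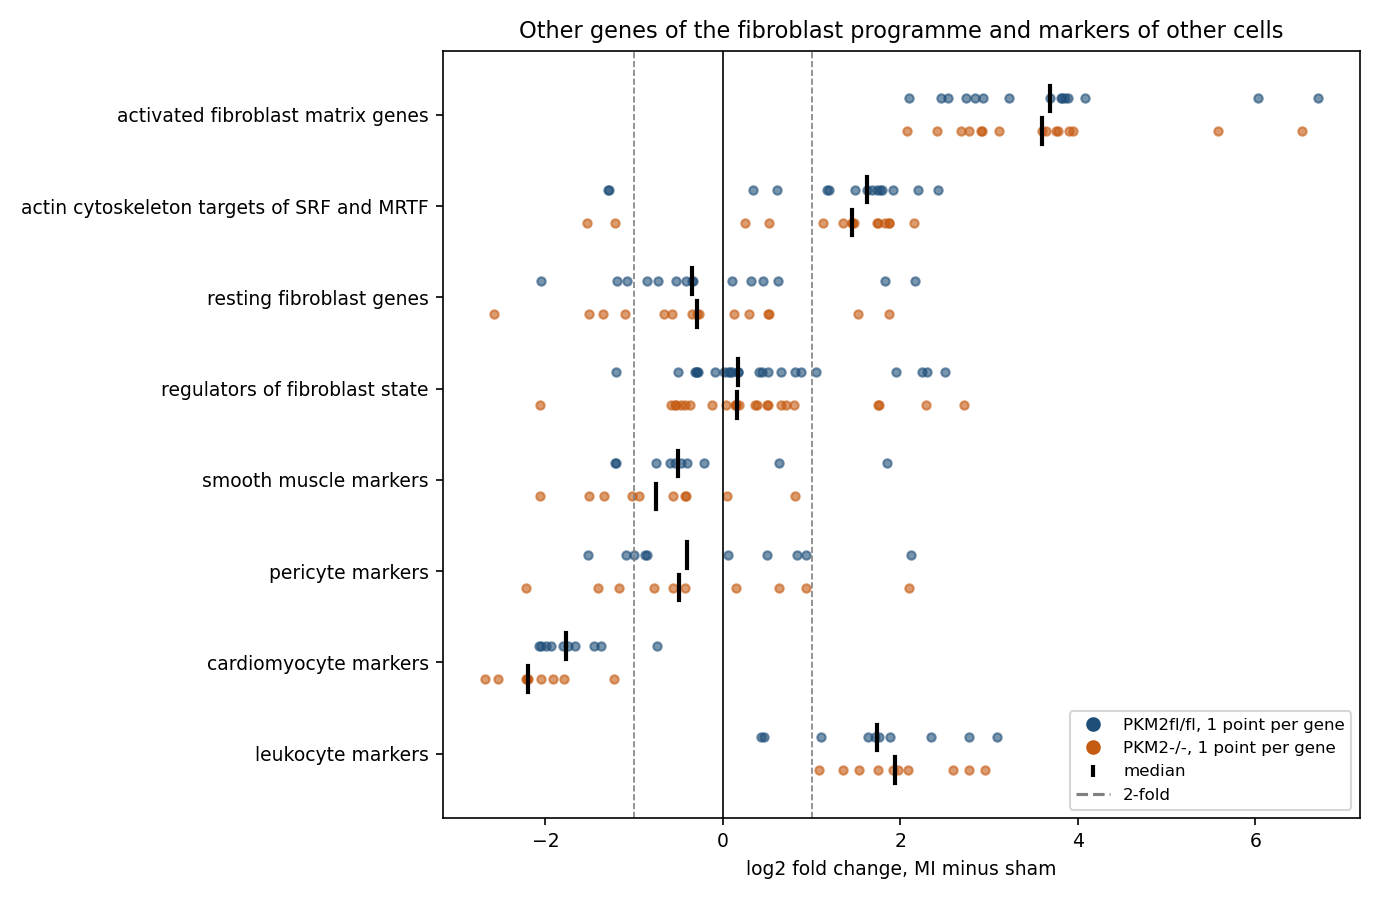
Log2 fold change of MI against sham (x axis) for each gene of 8 lists (y axis), PKM2fl/fl in blue and PKM2-/- in orange, with the list median as a black tick and dashed lines at 2-fold. Activated matrix genes lie to the right of 2-fold in both genotypes, cardiomyocyte markers to the left of 0, and resting fibroblast, smooth muscle and pericyte genes on both sides of 0.

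For each member, the 2 other genes whose log2 levels followed it most closely over the 16 libraries were taken from 15459 genes averaging 50 or more normalized counts. The points share libraries and treatment groups, so the coefficients describe these hearts only. They were *Fzd2* (Pearson r = 0.90) and *Tpm2* (0.90) for *Acta2*, *Gm48529* (1.00) and *Pls3* (0.97) for *Tagln*, and *Socs5* (0.86) and *Actg2* (0.84) for *Cnn1*. *Meox1* was followed by *Myo1e* (0.98) and *Prss23os* (0.97), *Fap* by *Zeb2* (0.96) and *Tceal8* (0.96), and *Ddah1* by *P3h1* (0.99) and *Lgals1* (0.99). For *Tcf21* they were *Gm10824* (0.99) and *Slc40a1* (0.83), for *Pdgfra* *Glp2r* (0.98) and *Lrrc25* (0.98), and for *Gsn* *Palm* (0.99) and *0610009L18Rik* (0.99). Among the members themselves, after the group means were removed, *Tagln* and *Cnn1* followed each other most closely (r = 0.91 over 16 libraries), *Acta2* and *Tagln* were at 0.74, and *Acta2* and *Cnn1* at 0.62.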

How the data were processed

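Left ventricles of 16 mice in 6 groups were sequenced after rRNA depletion, 1 library per mouse, so the replicate numbers of the labels name mice and pair none. The authors used PRINSEQ for trimming, HISAT2 for alignment to mm10, featureCounts for counting and DESeq2 for normalization, with versions not given in the sources used here. The deposited values are a signal, each read count divided by its library's DESeq2 size factor. The table also holds the authors' mean over libraries and a comparison whose groups the header does not name (log2 fold change, standard error, Wald statistic, p-value and adjusted p-value), which were not used here. Each library's values were whole multiples of a step (100% within 0.02 of a read), from which reads were recovered, and 0 columns were left without a sample.

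limma 3.58.1 (limma-trend, R 4.3.3) was fitted to log2(value + 1) with 6 group means, for 20576 genes with a mean of at least 10. p-values were adjusted by Benjamini-Hochberg over these genes. The alternatives were edgeR 4.0.16 with and without a filter and DESeq2 1.42.0 on recovered reads, TMM, total read and other scalings, a pseudocount of 0.1, other filters, the replicate number as a block, and each library left out. The *CT010467.1* covariate was chosen after seeing the data. Models were tested on simulated data. Sequence runs of actin transcripts and promoters came from GENCODE M39 and RefSeq (GRCm38.p6). No libraries of a group agreed within sampling noise.

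The members and gene lists were chosen with earlier results of these data known. Named genes are the members, the 4 genes of each list with the largest change in PKM2fl/fl hearts (at most 2 of other marker lists), *Myh11*, *Rgs5*, the actins, *Pkm*, *CT010467.1* and the 2 genes most like each member. *Postn*, *Sparc*, *Srf*, *Mrtfa*, *Msln*, *Krt8*, *Tpm1*, *Fhl2*, *Lars2*, *Gphn*, *Cd44*, *mt-Rnr1*, *mt-Rnr2* and the genes with CArG boxes were named after their values were seen.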

Additional observations from a re-analysis of the deposited data

How the results depend on the processing

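The numbers of members called in 9 comparisons gave 269 values with those of the alternatives, and 258 of 260 alternative counts stayed within 1.5 times the count reported. The others were 8 members called for MI in PKM2-/- hearts under total read scaling, in place of 5, where the median of all genes was 0.52, and 1 member, *Acta2*, called for the genotype by MI difference by edgeR without a filter on low counts, in place of 0. With each library left out, the counts for MI ranged from 6 to 7 in PKM2fl/fl and from 5 to 6 in PKM2-/- hearts, and all others stayed at 0. In every comparison other than MI against sham the count reported was 0, so most of the agreements are of 0 with 0. Leaving out a library outside the groups compared cannot move the log2 fold change. A replicate block gave 6 and 5 members called for MI and 0 elsewhere, so it changed no call, and same-numbered libraries did not deviate together (median r = −0.03 over 36 pairs, against 0.01 over 70 other pairs). Values of single members that changed sign were *Cnn1* for MI in PKM2-/- hearts without MI replicate 2 (−0.05) or 3 (−0.23), and, under total read scaling, *Cnn1* between genotypes at baseline (−0.071), *Tagln* (0.15) and *Meox1* (0.28) for the genotype by MI difference. None of these passed the test in either form. *Acta2* (1.43), *Pdgfra* (1.36) and *Tcf21* (1.08) were called for MI in PKM2-/- hearts under total read scaling. *Acta2* (1.14) and *Pdgfra* (1.06) were called there when libraries were scaled to reads outside rRNA-related and mitochondrial genes, where the median of all genes was 0.23. Under total read scaling, 6 pericyte markers in PKM2fl/fl hearts and 2 smooth muscle markers in PKM2-/- hearts were called, in place of 3 and 4. The medians of all genes were then −0.18 and 0.52. The share of all genes called under these scalings is not given here, so these counts cannot be set against the shares above. The cause of these changes was not tested. Without PKM2-/- MI replicate 1, *Cnn1* for MI in PKM2-/- hearts was 0.51. *Cthrc1* and *Cnn1* are limited by their few reads.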

Other observations

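Epicardial and mesothelial markers were a further list, chosen with earlier results of these data known. By limma, 8 of 10 were called higher after MI in PKM2-/- hearts, where 14.5% of all genes were. In PKM2fl/fl hearts, where 12.4% were, 2 of 10 were called higher, *Aldh1a2* and *Tbx18*, which were called in both genotypes. *Msln*, which encodes mesothelin, was at 59.1 ± 22.7 normalized counts in PKM2fl/fl sham and 103 ± 92.5 in PKM2fl/fl MI hearts, and at 9.39 ± 8.19 and 83.6 ± 52.0 in PKM2-/- hearts (SD, n = 3 each). The difference between the MI effects of the genotypes was 3.10 for *Msln* (standard error 1.34, unadjusted p = 0.0349, adjusted p = 0.575) and 2.72 for *Krt8* (standard error 1.12, adjusted p = 0.561), by limma. For that difference 0 of the 10 were called (0% of all genes). The median log2 difference of PKM2-/- against PKM2fl/fl hearts was −1.67 after sham surgery and 0.01 after MI. Limma called 0 of the 10 in each (0.00486% and 0.413% of all genes). The summed markers were at 1824 to 3195 normalized counts in PKM2fl/fl MI and 2784 to 3123 in PKM2-/- MI hearts, and these ranges overlapped.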
